A study of Mus musculus with 4 samples.

Results

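Macrophage-like cells of the fetal mouse penis were selected on their own transcripts, and 310 of the 47040 deposited barcodes met the rule. A barcode was kept if it held 1000 to 10000 unique molecular identifiers (UMIs, each marking 1 captured mRNA molecule) with at most 25% mitochondrial and at most 25% hemoglobin transcripts. It was then chosen by detection of at least 3 of 6 markers, *C1qa*, *C1qb*, *C1qc*, *Csf1r*, *Mrc1* and *Tyrobp*. The cells came from 4 single-cell mRNA libraries of E16.5 male genitalia. The 2 control libraries carried a Cre-dependent diphtheria toxin gene in the *Rosa* locus (*Rosa-LSL-DTA*) and no *Nr5a1-Cre*, with the genotype given as WT and the samples named DTA-. The 2 ablated libraries, named DTA+, carried *Nr5a1-Cre* as well, and the published crosses add a *Rosa-LSL-tdTomato* reporter allele for them. *Nr5a1-Cre* turns on the toxin in cells of the *Nr5a1* lineage. By the study's description it also removes the adrenals and ablates testis cells, so that loss of the genital *Nr5a1* cells and loss of adrenal and testis hormones cannot be told apart here. Testosterone was given to some pregnant dams of the study, and the sources do not say whether these embryos were among them. The sources do not say whether a library is 1 embryo or a pool. Libraries were the units of all tests. The gene tests also borrow an estimate of spread from other genes, so a small p-value there can rest on 1 library. Control 1 gave 66 of its 7600 kept cells, control 2 gave 75 of 8433, ablated 1 gave 82 of 8304 and ablated 2 gave 87 of 9367. Their summed depth was 336559, 391950, 435703 and 482163 UMIs in that order. The median depth of a macrophage-like cell was 5278.5, 5557, 5557 and 5905 UMIs, against 5064.5, 4235.5, 3675 and 3666 UMIs in the other kept cells. Between 31 and 48 barcodes recurred in each pair of libraries, and 0 of these were macrophage-like cells in both.

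Tissue macrophages are phagocytes that settle in organs before birth, clear dying cells, recycle iron and release growth factors and chemokines. Their survival depends on the receptor CSF1R and their lineage on the transcription factor PU.1, the product of *Spi1*, which binds purine-rich sequences in the promoters of myeloid genes. C1q, built from the products of *C1qa*, *C1qb* and *C1qc*, starts the classical complement cascade and marks apoptotic cells for uptake. MRC1 (CD206) is an endocytic mannose receptor, and TYROBP (DAP12) is the signaling adaptor of receptors such as TREM2.

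The promoters of 4 genes that were high in these cells are shown because C1q genes lie side by side and were expressed together, and because the short core of PU.1 and other Ets sites can be read in them. *C1qa*, *C1qc* and *C1qb* lie on the minus strand of chromosome 4 of GRCm38, with *C1qb* from 136880129 to 136886187, *C1qc* from 136889804 to 136893065 and *C1qa* from 136895917 to 136898803. The sequences are RefSeq promoters of GRCm38.p6, from 250 bases before to 50 after the RefSeq start site, written 5′ to 3′ along the strand of the gene. They cover chr4:136886151-136886450 on the minus strand for *C1qb*, chr4:136892865-136893164 on the minus strand for *C1qc*, chr2:14229164-14229463 on the plus strand for *Mrc1* and chr5:90772185-90772484 on the plus strand for *Pf4*. Capitals mark GAGGAA or, where the match lies on the other strand, TTCCTC. *C1qb*, *C1qc* and *Pf4* held 1 match each and *Mrc1* held 3. The RefSeq start site of *C1qc* lies inside the gene as positioned above, so its sequence reaches more than 50 bases into that gene.
C1qb: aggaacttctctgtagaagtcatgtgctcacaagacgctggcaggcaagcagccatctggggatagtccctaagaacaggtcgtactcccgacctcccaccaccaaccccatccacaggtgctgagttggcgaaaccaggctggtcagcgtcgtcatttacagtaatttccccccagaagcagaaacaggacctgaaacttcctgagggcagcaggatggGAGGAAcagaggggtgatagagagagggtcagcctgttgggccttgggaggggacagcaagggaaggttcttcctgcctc
C1qc: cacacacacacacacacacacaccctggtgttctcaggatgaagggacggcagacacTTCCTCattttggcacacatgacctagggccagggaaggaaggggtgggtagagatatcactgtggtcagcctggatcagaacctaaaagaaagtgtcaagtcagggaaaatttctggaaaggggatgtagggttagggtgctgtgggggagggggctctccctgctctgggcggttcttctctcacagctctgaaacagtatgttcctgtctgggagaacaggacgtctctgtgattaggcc
Mrc1: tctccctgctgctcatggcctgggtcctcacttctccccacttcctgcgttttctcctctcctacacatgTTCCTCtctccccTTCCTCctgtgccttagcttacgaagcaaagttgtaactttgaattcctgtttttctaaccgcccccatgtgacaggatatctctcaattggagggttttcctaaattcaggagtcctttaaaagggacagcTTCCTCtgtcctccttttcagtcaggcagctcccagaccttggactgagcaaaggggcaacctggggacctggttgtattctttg
Pf4: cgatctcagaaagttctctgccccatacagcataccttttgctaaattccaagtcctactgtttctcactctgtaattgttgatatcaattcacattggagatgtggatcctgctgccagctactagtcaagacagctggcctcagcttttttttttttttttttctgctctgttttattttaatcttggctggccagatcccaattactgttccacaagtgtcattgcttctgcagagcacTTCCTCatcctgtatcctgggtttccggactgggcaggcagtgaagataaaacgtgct
Of all 32851 RefSeq promoters of this length, 28.3% held the motif on either strand. Of the 198 identity genes described next, 147 matched the table by symbol, and 76 of their 186 promoters (40.9%) held it. A match is a description of the letters only, and several promoters can belong to 1 gene.

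The identity of the cells is given as a description, since 6 of the genes chose them. Levels are in CPM, the UMIs of a gene relative to all UMIs summed over the cells of 1 class in 1 library and scaled to a common total. A 3′ library gives 1 tag per molecule whatever the length of the transcript, so CPM were set side by side between genes. Of 1054 genes with at least 100 CPM in the macrophage-like cells of every library, 198 had a log2 ratio of at least 2 over the other kept cells after 10 CPM was added to both. *Apoe*, a lipid carrier, was at 17825, 15568, 15892 and 16733 CPM in control 1, control 2, ablated 1 and ablated 2, against a mean of 221 CPM in the other cells. *Pf4*, a platelet-type chemokine that fetal tissue macrophages also express, had the highest ratio, with 5633, 6996, 4487 and 4432 CPM against a mean of 2.74 CPM, a log2 ratio of 8.73. Of the 6 rule markers, *C1qb* was at 3958, 3057, 3030 and 3103 CPM, and *Tyrobp* had the highest level in other cells, a mean of 29.4 CPM. All 4 libraries held the same order of magnitude for each of these genes.

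The 25 genes with the highest ratios included 8 chemokines or chemokine receptors. Besides *Pf4* these were *Ccl4*, *Ccl3*, *Ccl7*, *Ccl12*, *Ccl2*, *Cxcl2* and the fractalkine receptor *Cx3cr1*. *Ccl4*, which attracts monocytes and lymphocytes, was at 1337, 2061, 2832 and 2111 CPM, against a mean of 14.6 CPM elsewhere. *F13a1* (a transglutaminase subunit), *Stab1* (a scavenger receptor), *Ctss* and *Ctsc* (lysosomal proteases), *Aif1*, *Ms4a7*, *Ms4a6c*, *Fcrls*, *Fcer1g* and *Il1b* were also among them. The macrophage identity list held 25 genes, and 23 of them had a log2 ratio of at least 2. In the perivascular-type list 15 of 18 genes had UMIs and 9 had such a ratio, and in the microglia-type list 4 of 9 had it. *Adgre1*, which encodes the F4/80 antigen and was picked after its values were seen, was at 291, 316, 388 and 367 CPM, against a mean of 0.485 CPM elsewhere. *Fcrls*, a receptor best known from microglia, was at 995, 689, 764 and 948 CPM, and *P2ry12*, a purinergic receptor of microglia, at 140, 84.2, 91.8 and 102 CPM. The plot of gene levels shows the group of genes that was high here and nearly absent elsewhere.

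**Figure D1:**
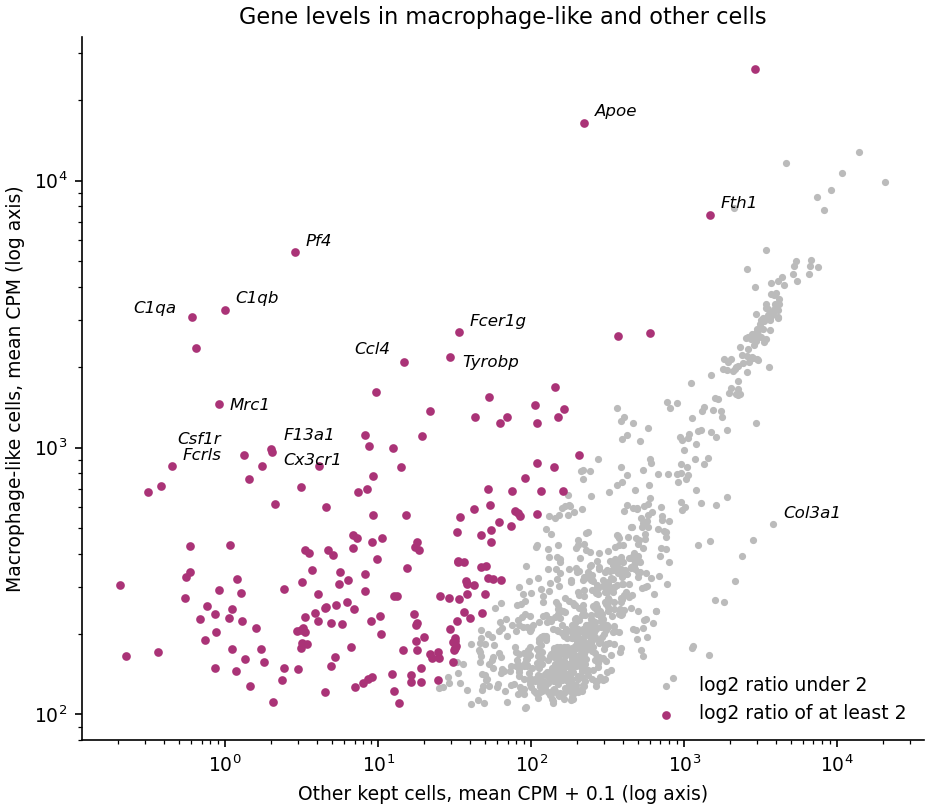
Mean CPM over 4 libraries of 1054 genes in macrophage-like cells (vertical, log axis) and in other kept cells (horizontal, CPM plus 0.1, log axis); coloured points are the 198 genes with a log2 ratio of at least 2. *Apoe*, *Pf4* and the C1q genes lie far above the main band, and *Col3a1* lies below it.

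Markers of other blood cells differed by list. The erythroid list summed to 2324, 3613, 381 and 645 CPM, nearly all of it globin transcripts. In the other kept cells it summed to 4210, 3679, 2465 and 926 CPM. The monocyte list, led by *S100a6*, summed to 835, 979.7, 1159 and 496 CPM. It was higher in the other kept cells of every library, at 1386, 1641, 1533 and 1441 CPM. *S100a6* itself had a mean of 228 CPM in macrophage-like and 562 CPM in other cells, so the sum does not single out monocytes. Of 10 lymphocyte markers, 8 had no UMI in any macrophage-like cell, the T cell genes *Cd3e* and *Trac* and the B cell gene *Cd79a* among them. *Cd79b*, a B cell receptor chain, was the most abundant of the list, at a mean of 77.6 CPM. Of 10 neutrophil markers, 5 were at 0, with a summed level of 20.8, 30.6, 29.8 and 18.7 CPM. The 8 dendritic cell markers summed to 50.5, 20.4, 39.0 and 43.6 CPM, and the 6 osteoclast markers to 23.8, 38.3, 25.2 and 27.0 CPM. The mast cell list, led by *Cma1*, summed to 35.7, 329, 135 and 8.30 CPM, and 58 of the 61 *Cma1* UMIs of control 2 came from 1 cell. Mesenchymal transcripts were present, with *Col3a1*, a fibrillar collagen, at 374, 875, 363 and 452 CPM against 3170, 5784, 3751 and 2542 CPM in the other cells. The 10 genes of the mesenchymal list summed to 1162, 2745, 1659 and 2424 CPM. The endothelial list, led by *Egfl7*, summed to at most 78.8 CPM, the epithelial list, led by *Krt15*, to at most 101 CPM and the Schwann and nerve cell list, led by *Stmn2*, to at most 16.6 CPM. The pericyte and smooth muscle list, led by *Acta2*, summed to 226, 53.6, 39.0 and 45.6 CPM. Doublets were not removed, and 3, 8, 8 and 9 cells carried at least 3 markers of another cell type or at least 1% of mesenchymal transcripts.

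The number of rule markers detected graded the cells. Among members, 193 cells held all 6 markers, 46 held 5, 40 held 4 and 31 held the minimum of 3. The 107 cells just outside, with 2 markers, had 4169 CPM of *Apoe* and 67.5 CPM of *Pf4*, with 1646 CPM of *Cma1*, a mast cell protease. The 31 cells just inside had 3203 CPM of *Apoe*, 543 CPM of *Pf4*, 2959 CPM of *Col3a1* and no *Cma1* UMI. Cells with all 6 markers had 18976 CPM of *Apoe*, 6882 CPM of *Pf4* and 159 CPM of *Col3a1*. Depth differed with the number of markers and did not rise evenly. The mean was 5123, 4099.6, 3258, 4511 and 6121 UMIs per cell with 2, 3, 4, 5 and 6 markers. Counts of called genes and the share of macrophage-like cells with the minimum moved to 2 or 4 markers are therefore given with the limits.

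**Figure D2:**
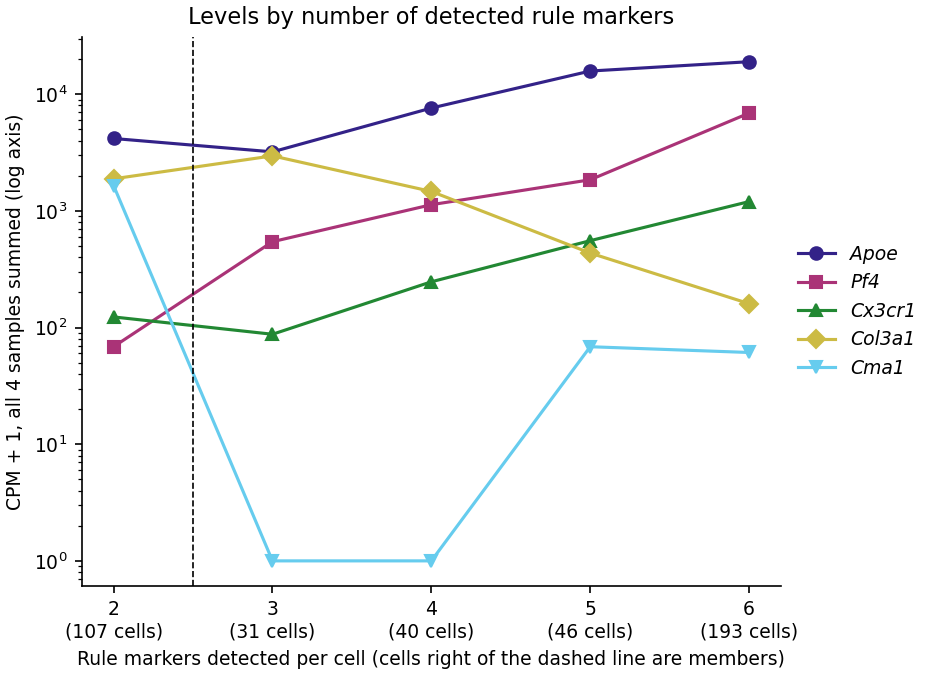
CPM plus 1 (log axis) of 5 genes summed over all 4 libraries in cells grouped by the number of detected rule markers. *Apoe*, *Pf4* and *Cx3cr1* were highest in the 193 cells with 6 markers, *Col3a1* was lowest there, and *Cma1* was high in the 107 non-member cells with 2 markers.

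Within the macrophage-like cells, *Lyve1* and *Ccr2* were never detected together. *Lyve1* encodes a hyaluronan receptor of perivascular-type resident macrophages, and *Ccr2* the chemokine receptor that recruits monocytes. These cells were divided after the values had been seen, so levels are a description without a test. *Lyve1* was detected in 71 of the 310 cells, *Ccr2* in 43, and both in 0. That 0 of 43 *Ccr2* cells held *Lyve1* allows a share of up to 6.98% (3 of 43; counting error only). Of the 267 cells without *Ccr2*, 26.6% held *Lyve1*. Depth was similar, with a median of 5841 UMIs with *Ccr2* and 5490 UMIs without. The *Ccr2* cells made up 13.6%, 14.7%, 18.3% and 9.20% of the macrophage-like cells of control 1, control 2, ablated 1 and ablated 2. In the other kept cells, *Ccr2* was detected in 0.411%, 0.323%, 0.268% and 0.183%.

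*Gas6*, *Slc40a1*, *Stab1*, *Igf1* and the rule marker *Mrc1* were higher in the *Lyve1* cells than in the *Ccr2* cells of the same library in all 4 libraries. *Gas6*, a bridging ligand that links dying cells to phagocytic receptors, was at 872, 513, 700 and 616 CPM in the *Lyve1* cells of control 1, control 2, ablated 1 and ablated 2, and at 16.4, 0, 22.6 and 0 CPM in the *Ccr2* cells. *Slc40a1* encodes ferroportin, the iron exporter, and was at 587, 759, 629 and 304 CPM against 0, 0, 22.6 and 0 CPM. *Mrc1* was at 2557, 2413, 3315 and 2602 CPM against 1197, 80.0, 701 and 256 CPM. In the cells with neither gene *Mrc1* was at 1263, 1272, 1049.7 and 1013 CPM, close to the *Ccr2* cells in control 1 and above them in the other libraries. *F13a1* was at 1410, 496, 373 and 146 CPM in the *Ccr2* cells and at 746, 937, 410.2 and 368 CPM in the cells with neither gene, so that control 1 alone had the higher level in *Ccr2* cells. Of the scavenger receptors, 32.4% of the *Lyve1* cells and 5.44% of the cells without *Lyve1* held *Cd163*, and 33.8% and 7.11% held the folate receptor *Folr2*. *Igf1*, a growth factor, was at 474 CPM over all *Lyve1* cells and 30.0 CPM over all *Ccr2* cells, and *Ccl24*, an eosinophil chemokine, at 839 and 52.5 CPM. *Timd4*, a phosphatidylserine receptor of long-lived resident macrophages, was detected in 8 of the 310 cells.

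Monocyte-type genes showed the opposite order. *Plac8* had 574, 1024, 1165 and 952 CPM in the *Ccr2* cells and no UMI in any *Lyve1* cell. *Lyz2*, the lysozyme of phagocytes, was at 4903, 7042, 3743 and 1630 CPM in the *Ccr2* cells and between 616 and 1083 CPM in the *Lyve1* cells. *Il1b*, the inflammatory cytokine, was at 935, 3233, 3121 and 1062 CPM in the *Ccr2* cells, above the *Lyve1* cells of the same library each time. *Apoe* was at 17767 CPM over all *Ccr2* cells and 15059 CPM over all *Lyve1* cells, and *C1qb* at 2653 and 3124 CPM. All 6 rule markers were detected in 87.3% of the *Lyve1* cells and 41.9% of the *Ccr2* cells, and the rule itself used *Mrc1*.

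**Figure D3:**
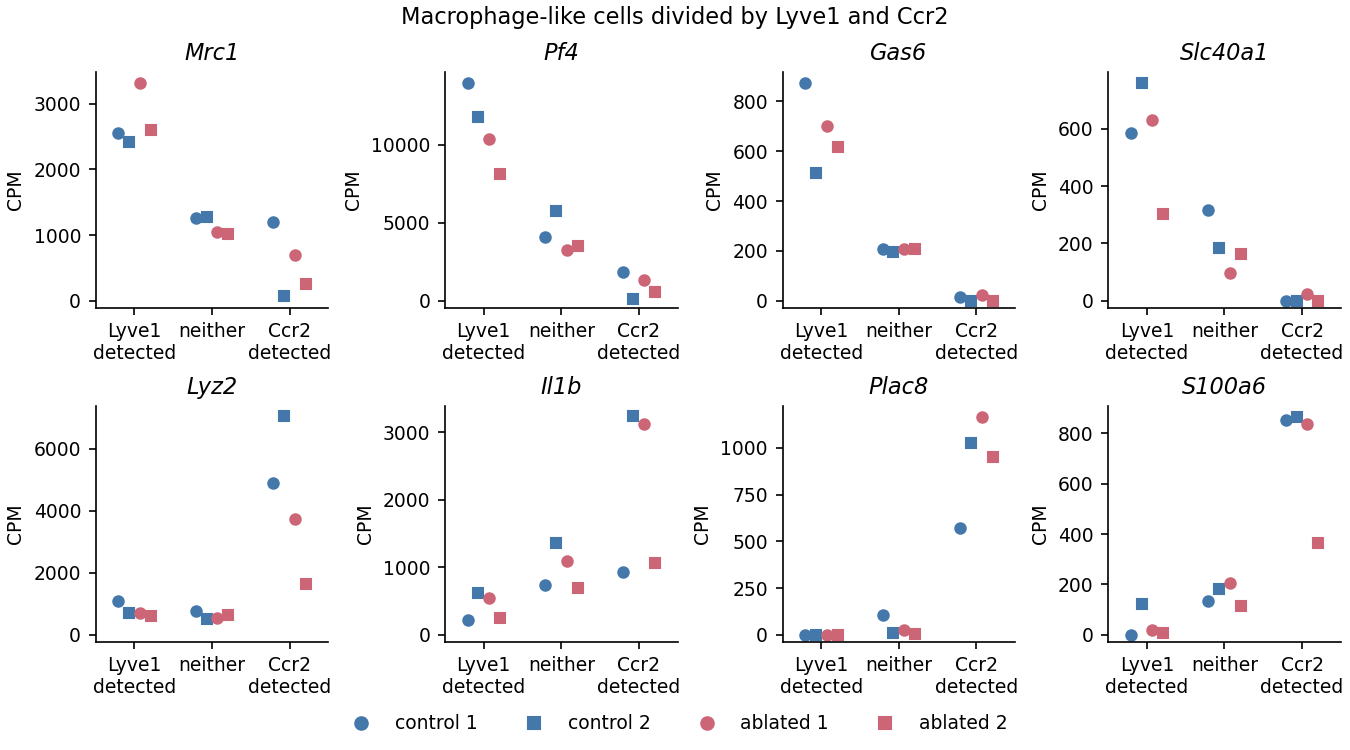
CPM of 8 genes in macrophage-like cells with *Lyve1*, with *Ccr2* or with neither, 1 point per library (blue control, red ablated; circles replicate 1, squares replicate 2). *Gas6* and *Slc40a1* are near 0 in all 4 sets of *Ccr2* cells, while *Plac8* is at 0 in all 4 sets of *Lyve1* cells.

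The first comparison between genotypes asked whether loss of the *Nr5a1* lineage changed the number of macrophage-like cells. They made up 0.868% (66 of 7600; exact 95% binomial interval 0.672 to 1.10%) and 0.889% of the kept control cells, and 0.987% and 0.929% of the kept ablated cells. The mean was 0.879% ± 0.0148 (SD, n = 2) for the control libraries and 0.958% ± 0.0415 (SD, n = 2) for the ablated ones. Both ablated libraries lay above both controls, yet an exact two-sided permutation test gave p = 0.333, the smallest p that 2 against 2 libraries can give. The direction turned when the study's cell limits were used or when 2 markers sufficed. A share of captured cells does not tell fewer cells of one type from more of another.

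Subsets were compared after each cell was thinned to 1000 UMIs, because depth differed between libraries. *Lyve1* was then detected in 10.6% and 13.3% of control and in 12.2% and 9.20% of ablated macrophage-like cells, and the groups overlapped (11.97% ± 1.93 against 10.7% ± 2.12, SD, n = 2; exact permutation p = 0.667). Before thinning the means were 25.1% and 20.7%, and among thinned other cells 0.0126% and 0.0290% held *Lyve1*. Cells with at least 2 of 17 proliferation genes made up 21.9% ± 1.03 of control and 20.03% ± 4.18 of ablated macrophage-like cells (SD, n = 2; exact permutation p = 1). Among the other kept cells the share was 15.9% ± 0.543 and 9.66% ± 1.51 (SD, n = 2), lower in both ablated libraries. Whether the genotypes differed more in other cells than in macrophage-like cells was not tested for this share.

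The MHC class II chains *H2-Aa*, *H2-Ab1* and *H2-Eb1* were rare, whereas other genes of the antigen presentation list were measured in every library. *H2-DMa*, a chaperone of peptide loading, was at 68.3, 48.5, 78.0 and 68.4 CPM, and *Cd74*, the invariant chain, was at 98.1, 58.7, 544 and 33.2 CPM, high in ablated 1 alone. The 7 genes of the list summed to 172, 119.9, 1171 and 112 CPM, against 14.4 to 51.2 CPM in the other cells. *H2-Aa*, *H2-Ab1* or *H2-Eb1* was detected in 3 of 82 cells of ablated 1 and in 0 of 66, 0 of 75 and 0 of 87 cells of control 1, control 2 and ablated 2 after thinning. A count of 0 allows shares of up to 4.55%, 4% and 3.45% there, and the exact permutation p was 1. Before thinning, 1 of 75 cells of control 2 also held 1 UMI of *H2-Ab1*. Among thinned other cells the shares were 0.279%, 0.215%, 0.280% and 0.302%. The 3 cells had 4, 6 and 6 of the rule markers and 4, 7 and 4 UMIs of *Ccr2*. The cell with 4 markers also held 3 UMIs of *Cd209a*, a dendritic cell lectin, and 71 UMIs of *Cd74*.

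The next comparison asked which genes changed in macrophage-like cells between genotypes. Of 5363 genes tested, 4 (0.0746%) passed an adjusted p of 0.05 in edgeR's quasi-likelihood test, all of them lower in ablated libraries and all of them adult hemoglobin genes. These are transcripts of red blood cells. At an unadjusted p under 0.05 there were 244 genes (4.55%), 144 higher and 100 lower. The 2 control and 2 ablated values did not overlap for 33.4% of all genes tested, in either direction. The median log2 fold change over all genes was -0.01, with quartiles of -0.23 and 0.24.

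*Hbb-bs*, a beta globin, was at 1524 and 2500.3 CPM in control and 193 and 419 CPM in ablated macrophage-like cells. Its log2 fold change was -2.75 (SE 0.30; edgeR quasi-likelihood test, Benjamini-Hochberg adjusted p = 0.00109). *Hbb-bt* changed by -2.64, *Hba-a1* by -2.16 and *Hba-a2* by -1.98 on the log2 scale. Each globin pair is nearly identical in sequence, so the split of counts within a pair is uncertain. The other kept cells held *Hbb-bs* at 2765 and 2566 CPM in control and 1653 and 631 CPM in ablated libraries. Of 10 erythroid markers, 5 had UMIs in macrophage-like cells, the 4 globins and *Alas2* with 2 UMIs in all, and the membrane protein *Slc4a1* was at 0. Hemoglobin transcripts thus moved in both classes, and the part that RNA from red blood cells had in the values of macrophage-like cells was not tested. Single cells weighed heavily, since 189 of 513 and 509 of 980 *Hbb-bs* UMIs in control and 4 of 84 and 135 of 202 in ablated libraries came from 1 cell. Without that cell the UMIs were 324 and 471 in control and 80 and 67 in ablated libraries. With no upper UMI limit the direction reversed, with log2 fold changes of 0.83 to 1.02 for the 4 genes, higher in ablated libraries, and none was called. Under the study's cell limits none was called either. Of 15 alternatives, *Hbb-bs* kept its call in 12, *Hbb-bt* in 11, and *Hba-a1* and *Hba-a2* in 9 each. The cap of 25% hemoglobin per cell was part of the selection, and hemoglobin made up 0.232%, 0.361%, 0.0381% and 0.0645% of the members' UMIs.

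**Figure D4:**
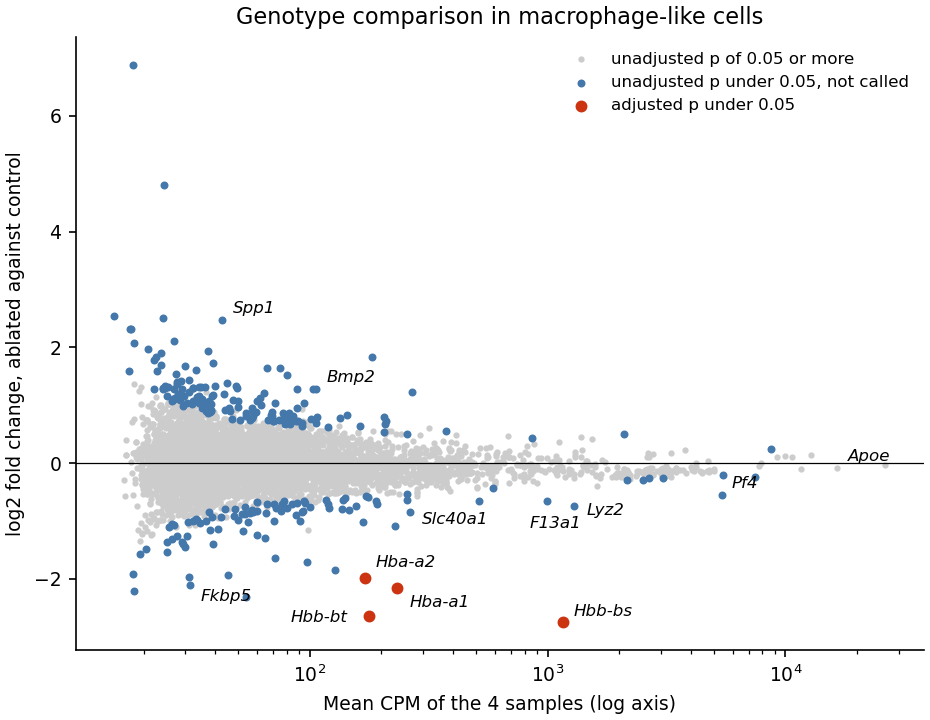
Mean CPM in macrophage-like cells (horizontal, log axis) and log2 fold change of ablated against control libraries (vertical) for 5363 genes. The 4 red points, with log2 fold changes between -2.75 and -1.98, are the hemoglobin genes that passed the test.

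By a rule that took the smallest p-values among genes of at least 20 CPM whose groups did not overlap, 16 more genes were named, and their values did not pass the test. Of the 20 leading genes, 14 had a higher mean CPM in the other cells than in macrophage-like cells, and 6, *Pf4*, *F13a1*, *Bmp2*, *Egr3*, *Spp1* and *Hspa1a*, had a higher mean in the macrophage-like cells.

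*F13a1* was at 1177 and 1220 CPM in control and 771 and 794 CPM in ablated cells (log2 fold change -0.66, SE 0.16; adjusted p = 0.335). The share of cells in which it was detected was 72.7% and 74.7% in control and 58.5% and 48.3% in ablated libraries. In the *Lyve1* cells alone it was at 2316, 1937, 2038 and 2023 CPM, so that the groups overlapped there. In the cells with neither *Lyve1* nor *Ccr2* it was at 746 and 937 CPM in control and 410 and 368 CPM in ablated libraries. *Pf4* was at 5633 and 6996 CPM in control and 4487 and 4432 CPM in ablated cells (log2 fold change -0.54, SE 0.11; adjusted p = 0.0982). Both genes were lower in both ablated libraries, and neither adjusted p was under 0.05.

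*Bmp2* encodes a secreted ligand of the BMP family. It had 65.4 and 56.1 CPM in control and 151 and 153 CPM in ablated macrophage-like cells (log2 fold change 1.29, SE 0.29; adjusted p = 0.245). It was detected in 5 of 66 and 10 of 75 control cells and in 19 of 82 and 19 of 87 ablated cells. In the *Lyve1* cells it was at 286, 101, 406 and 418 CPM, and in the *Ccr2* cells at most at 64.0 CPM. *Spp1*, the matrix cytokine osteopontin, was at 20.8, 5.10, 68.9 and 76.7 CPM (adjusted p = 0.0982), but 23 of 30 and 32 of 37 UMIs of the ablated libraries came from 1 cell each. *Egr3*, an immediate early factor, was at 17.8 and 61.2 CPM in control and 108 and 133 CPM in ablated cells, and *Hspa1a*, a heat shock protein, at 253 and 143 CPM in control and 94.1 and 20.7 CPM in ablated cells.

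Among the leading genes that other cells held at higher levels, *Fkbp5*, a glucocorticoid- and androgen-induced chaperone, was at 50.5 and 51.0 CPM in control and 9.18 and 14.5 CPM in ablated macrophage-like cells (log2 fold change -2.10, SE 0.47; adjusted p = 0.245). In the other kept cells it was at 74.0 and 77.0 CPM in control and 13.3 and 13.6 CPM in ablated libraries. *Igfbp2*, a binding protein of insulin-like growth factors, was at 95.1 and 86.7 CPM against 39.0 and 37.3 CPM, with 1094 and 1006 against 378 and 393 CPM elsewhere. *Ptn*, a heparin-binding growth factor, was at 208 and 235 CPM against 115 and 110 CPM, with 1640 and 2001 against 1049 and 1106 CPM elsewhere. Both classes thus moved the same way, and the part of RNA from other cells in these values was not tested. *Aspn*, *Prrx1*, *Nfib*, *Npnt* and *Plxdc2*, which were higher in the other kept cells as a whole, had higher values in ablated macrophage-like cells. The part of RNA from other cells or of doublets in these 5 genes was not tested either. *Aspn*, a matrix proteoglycan, was at 2.97 and 0 CPM in control and 34.4 and 60.1 CPM in ablated cells (adjusted p = 0.0682), and *Prrx1*, a mesenchymal homeobox factor, at 32.7 and 30.6 CPM against 75.7 and 127 CPM. *Hist1h1b*, a linker histone of dividing cells, was at 41.6 and 58.7 CPM against 122 and 133 CPM, and its log2 difference from the other cells was 1.71 (adjusted p = 1.3e-05). The transcript of the *Rosa* locus, *Gt(ROSA)26Sor*, was at 2.97 and 10.2 CPM against 45.9 and 37.3 CPM, with 14.0 and 17.6 against 71.3 and 86.1 CPM elsewhere. The summed mesenchymal list was at 1162 and 2745 CPM in control and 1659 and 2424 CPM in ablated libraries, so that the groups overlapped. Of its 9 genes tested, 0 were called, with 2 higher and 1 lower at an unadjusted p under 0.05, against 4.55% of all genes in either direction.

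Lists of genes by role are described by their counts, beside the background of all genes tested. In the complement list 8 of 14 genes were tested and 0 were called or reached an unadjusted p under 0.05, with a median log2 fold change of -0.18. *C1qa*, *C1qb* and *C1qc* were at -0.23, -0.24 and -0.20. These 3 are rule markers and 3 of the 8 genes behind that median, so their values are a description and the median leans on what chose the cells. Among efferocytosis and scavenging genes, 18 of 27 were tested and 0 were called, with 1 higher and 2 lower at an unadjusted p under 0.05 and a median of -0.01. Over all genes tested, 4.55% reached that p and 0.0746% were called, in either direction. For 6 of the 18 genes the groups did not overlap in the higher and for 2 in the lower direction, against 33.4% of all genes tested. The 3 C1q genes are in this list too, with the same limit. *Abca1*, a cholesterol exporter, was at 282 and 311 CPM in control and 406 and 494 CPM in ablated cells (unadjusted p = 0.0204, adjusted p = 0.993). In the lysosome list 23 of 26 genes were tested, 0 were called or reached an unadjusted p under 0.05, and the median was 0.05. *Ctsb*, *Ctsd* and *Lgmn*, lysosomal proteases, were at 0.05, 0.32 and -0.13.

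Iron and haem handling had 12 of 17 genes tested and 0 called, with a median of -0.18. Of the 12, 10 were below zero, and 4 were lower and 0 higher at an unadjusted p under 0.05. Over all 5363 genes, 2738 were below zero and 4.55% reached that p in either direction, and 820 of the 1353 genes averaging 100 CPM or more were below zero. *Slc40a1* was at 312 and 357 CPM in control and 202 and 183 CPM in ablated cells (log2 fold change -0.84, SE 0.23; adjusted p = 0.535). *Fth1*, the ferritin heavy chain, was at 7880 and 8024 CPM against 7758 and 6160 CPM, *Ftl1*, the light chain, at 8224 and 7345 against 8081 and 7914 CPM, and *Hmox1*, which breaks down haem, at 267 and 401 against 294 and 270 CPM. The groups did not overlap for *Slc40a1* and *Fth1* and overlapped for the other two. Over the list they did not overlap for 1 gene in the higher and 3 in the lower direction of 12, against 33.4% of all genes tested. Of the 10 growth factor and survival genes tested out of 21, 9 were above zero and 0 were called, with 2 higher and 0 lower at an unadjusted p under 0.05 and a median of 0.28. Besides *Bmp2* and *Spp1*, *Igf1* was at 131 and 260 CPM in control and 234 and 265 CPM in ablated cells, and *Grn*, the lysosomal growth factor progranulin, at 588 and 541 against 583 and 713 CPM, so that both overlapped.

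Of the chemokines and receptors 19 of 21 were tested and 0 were called, with 2 higher and 1 lower at an unadjusted p under 0.05. Of all genes tested, 4.55% reached that p in either direction. The groups did not overlap for 5 genes in the higher and 3 in the lower direction, against 33.4% of all genes tested. Among the 5, *Ccl4* and *Ccl7* were at log2 fold changes of 0.50 and 0.44 (adjusted p = 0.993 for both). Cytokine and inflammation genes had 14 of 20 tested, 0 called or at an unadjusted p under 0.05 and a median of 0.02, and their summed level of 3506, 5677, 5662 and 4088 CPM was highest in 1 library of each genotype. *Il1b* was at 669, 1396, 1384 and 612 CPM. The dissociation stress list followed a like order, with 13995 CPM in control 1 and 22863, 20638 and 18616 CPM in the other libraries, and the part of cell preparation in the cytokine values was not tested. Interferon response genes had 11 of 16 tested and 0 called or at an unadjusted p under 0.05, with a median of -0.06. Lipid handling genes had 12 of 16 tested and 0 called, with 2 higher and 0 lower at an unadjusted p under 0.05 and a median of 0.16. That p was reached by 4.55% of all genes in either direction. For 5 of the 12 genes the groups did not overlap in the higher and for 0 in the lower direction, against 33.4% of all genes tested. *Fabp5*, a fatty acid binding protein, was at 146 and 166 CPM in control and 266 and 247 CPM in ablated cells (unadjusted p = 0.0143, adjusted p = 0.993).

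Hormone-responsive genes were of interest because the ablated embryos lack adrenals. Of 24 glucocorticoid-induced genes 13 were tested in macrophage-like cells and 0 were called, with 0 higher and 4 lower at an unadjusted p under 0.05 and a median of -0.06. *Tsc22d3*, the leucine zipper protein GILZ, was at 116 and 99.5 CPM in control and 64.3 and 72.6 CPM in ablated cells (log2 fold change -0.69, SE 0.29; adjusted p = 0.993). *Dusp1*, a phosphatase, was at 704, 1439, 1283 and 1022 CPM. Of 11 androgen-induced genes 5 were tested and 0 called, with 0 higher and 3 lower at an unadjusted p under 0.05 and a median of -0.69. *Fkbp5* and *Tsc22d3* are in both lists and among the lower genes of each, and 4.55% of all genes reached that p. Of the 19 of 20 growth and fate regulators tested, 0 were called, with *Maf*, a macrophage transcription factor, at -0.19. *Csf1r*, also in the list, chose the cells. Of 18 cell cycle genes tested, 12 were below zero and 0 were called or reached an unadjusted p under 0.05.

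The last comparison tested whether macrophage-like cells and the other kept cells responded differently. The difference of the 2 log2 fold changes was tested in edgeR's quasi-likelihood model with the library as a block, and 47 of 15384 genes (0.306%) passed an adjusted p of 0.05, 34 with a higher and 13 with a lower response in macrophage-like cells. DESeq2 called 1. The 34 include the rule marker *Mrc1*, whose level in the other cells the rule itself set, so nothing is read from it. For 18 of the 47 genes, the level in other cells was under 20 CPM.

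*Mt1*, a metallothionein that binds zinc and copper and is induced by glucocorticoids, had a log2 difference of 1.93 (SE 0.20; adjusted p = 5.12e-17). It was at 493 and 645 CPM in control and 590 and 539 CPM in ablated macrophage-like cells, so that the groups overlapped. In the other kept cells it was at 81.7 and 174 CPM in control and 49.3 and 20.2 CPM in ablated libraries, lower in both. DESeq2 gave the same direction and did not call it, and the values without each library ranged from 1.36 to 2.52. *Slc40a1* had a log2 difference of -1.81 (SE 0.26; adjusted p = 2.03e-08). Its level was lower in ablated macrophage-like cells, as given above, and higher in the other cells of ablated libraries (9.18 and 7.24 CPM) than of control libraries (3.64 and 4.40 CPM). It was the gene that DESeq2 also called, and it kept its call in 13 of 14 alternatives. It is also 1 of the 18 genes whose level in the other cells was under 20 CPM, so its difference rests in part on that low level. It was detected in 21, 35, 27 and 40 macrophage-like cells, with at most 28 UMIs in 1 cell.

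*Bmp2* had a log2 difference of 1.63 (SE 0.32; adjusted p = 3.01e-04), with 36.4 and 38.6 CPM in the other control cells and 28.1 and 33.3 CPM in the other ablated cells. *Txnip*, a redox and glucose-responsive regulator, had a log2 difference of -1.19 (SE 0.23; adjusted p = 1.94e-04). It was at 389, 168, 252 and 243 CPM in macrophage-like cells, where the groups overlapped, and at 101 and 83.4 CPM in control and 208 and 188 CPM in ablated libraries of the other cells. *Nfib* had a log2 difference of 1.57, with 32.7, 38.3, 126 and 104 CPM in macrophage-like cells and 495, 475, 479 and 579 CPM elsewhere. The part of RNA from other cells in the *Nfib* values was not tested. The call was kept in 10 of 14 alternatives for *Bmp2*, 10 of 14 for *Txnip* and 9 of 14 for *Nfib*. *Slc40a1* was named by the rule for the largest differences and *Bmp2* and *Nfib* were among the leading genes above, whereas *Mt1* and *Txnip* were chosen after their values were seen. In the role lists, the genes that passed on the higher side were 2 of 24 tested for efferocytosis and scavenging (1 of them *Mrc1*) and 2 of 25 for lysosome. They were 3 of 20 for growth factors, 2 of 20 for chemokines and receptors, 1 of 20 for cytokines, 1 of 20 for cell cycle and 1 of 16 for lipid handling. They were also 4 of 6 for antigen presentation by MHC class II, 1 of 23 for glucocorticoid-induced and 1 of 10 for androgen-induced genes. The 4 were *H2-Aa*, *H2-Ab1*, *H2-Eb1* and *Cd74*, all high in macrophage-like cells of ablated 1 alone. The 3 cells of that library with class II chains also held 71, 89 and 32 UMIs of *Cd74*, so this count rests on few cells of 1 library. On the lower side *Slc40a1* passed, 1 of 16 iron and haem genes, and over all genes 0.306% passed in either direction. The log2 difference was 1.40 for *Gas6*, 1.03 for *Ccl2*, 0.86 for *Ctss*, 0.72 for *Ctsc*, 1.20 for *Top2a*, a topoisomerase of dividing cells, and 3.81 for *Spp1*, whose UMIs lay mostly in single cells as given above. The groups overlapped in macrophage-like cells for *Gas6* (303, 276, 282 and 297 CPM), *Ccl2* (739.8, 1549, 1340.4 and 1871 CPM) and *Ctss* (986, 742, 806 and 886 CPM). In the other cells *Gas6* was at 8.68, 14.6, 5.22 and 3.63 CPM and *Ctss* at 5.06, 5.28, 3.19 and 2.48 CPM, lower in both ablated libraries. The 107 cells with 2 markers count as other cells and had 810 CPM of *Ctss*, so the rule bears on such low levels. Its part in these differences was not tested, and nothing is read from them about the other cells. *Il1b* and *Igf1* passed with a log2 difference of 1.08 each, while their groups overlapped in macrophage-like cells as given above. In the other cells *Il1b* was at 9.82, 14.1, 5.90 and 4.78 CPM, and *Igf1* was at 116, 163, 80.4 and 91.9 CPM. *Fabp5* passed with 1.02, with 427, 351, 312 and 318 CPM in the other cells. *Hbb-bs* and *Hbb-bt* were among the 13 genes on the lower side. How far the single cells and the upper UMI limit that weighed on their fold changes also weigh on these 2 differences is not reported here.

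Of the other genes with the largest log2 differences, 6 rested on few cells. *H2-Aa*, *H2-Eb1* and *H2-Ab1* had UMIs in ablated 1 from the 3 cells described above. *Cma1* and *Tpsb2*, mast cell proteases, had 58 of 61 and 32 of 34 UMIs of control 2 in 1 cell, and *Acta2*, smooth muscle actin, had 36 of 40 UMIs of control 1 in 1 cell. *Aspn* and *Mme*, a membrane peptidase, were higher in ablated macrophage-like cells at levels below those of the other cells. For both genes the part of RNA from other cells was not tested. *Tec*, a kinase of blood cells, was at 35.7, 48.5, 25.2 and 35.3 CPM, with 4.18, 4.45, 11.7 and 15.8 CPM elsewhere. Of 14 alternatives, *Aspn* kept its call in 12, *Mme* in 7 and *Tec* in 6.

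**Figure D5:**
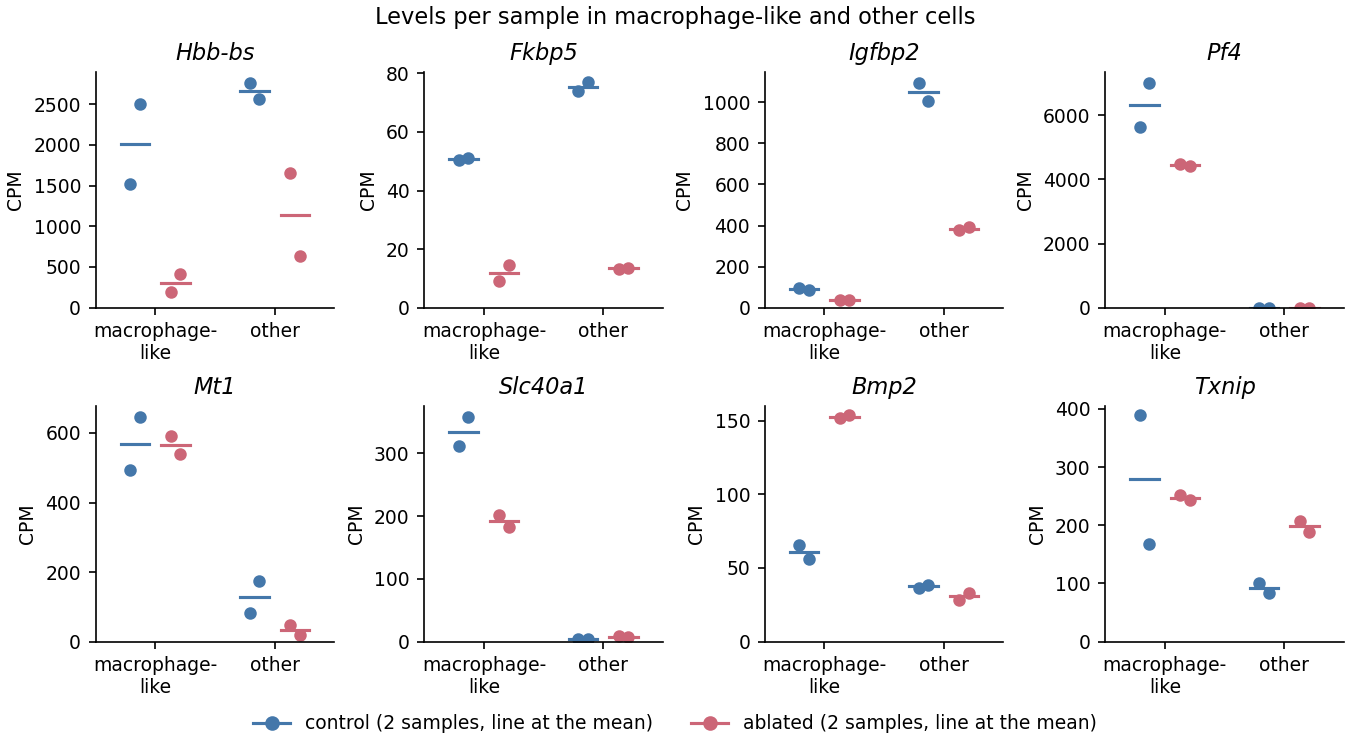
CPM of 8 genes per library (points) with the mean of 2 libraries (lines) in macrophage-like and other kept cells, control in blue and ablated in red; vertical axes start at 0. *Hbb-bs*, *Fkbp5* and *Igfbp2* were lower in ablated libraries of both classes, whereas *Mt1* overlapped in macrophage-like cells and was lower in the other cells.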

How the data were processed

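The files hold UMI counts per gene and barcode from 10x Genomics 3′ libraries, 2 control and 2 ablated, pooled on 1 flow cell. According to the labels and file headers the authors used Cell Ranger 4.0.0 (the methods name another version) on mm10 with reporter sequences added, and the deposited counts are whole numbers without normalization. Barcodes were limited and members chosen as given in the report; 1343, 549, 509 and 488 barcodes exceeded 10000 UMIs. The members and lists were chosen with earlier results of these data known. Counts were summed per library and class and tested across all genes with edgeR 4.0.16 in R 4.3.3 (TMM, filterByExpr, quasi-likelihood test, genotype only, Benjamini-Hochberg), after the steps were tested on simulated data. The difference between classes used the library as a block and the interaction of class and genotype. A likelihood ratio test in edgeR and DESeq2 1.42.0 served as alternatives. CPM were relative to the summed UMIs, and fold changes came from the TMM-normalized fit. Shares were tested with an exact two-sided permutation test over libraries, with Clopper-Pearson intervals that cover counting error only. Named genes were the rule markers, up to 5 of a list (called, then by level), up to 10 leading genes in each direction with at least 20 CPM and no overlap, the 25 top identity genes and up to 5 called interaction genes in each direction. Same-numbered libraries did not deviate together (correlation -0.02 over 5363 genes, 2 pairs). Replicates differed beyond counting noise. Gene positions are from GENCODE vM21 and promoters from RefSeq. Python 3.11.15, numpy 2.4.6, scipy 1.17.1, pandas 2.3.3 and matplotlib 3.10.9 were used. Other cell populations and the developmental series were not analysed here. Some genes of the lists are not reported here.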

Additional observations from a re-analysis of the deposited data

Results flagged for a closer look

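The responses of 14 genes to ablation differed between macrophage-like and other cells by the interaction test, and they are given as the log2 fold change in macrophage-like cells minus that in other cells. The values were 15.1 for *H2-Aa*, 14.5 for *H2-Eb1* and 6.57 for *H2-Ab1*; since all or nearly all their UMIs lay in 3 cells of ablated 1, these depend on the small count that the model adds and are no fold. They were 4.66 for *Aspn*, 4.02 for *Mme*, 1.93 for *Mt1*, 1.63 for *Bmp2* and 1.57 for *Nfib* on the higher side. They were -2.41 for *Tpsb2*, -2.35 for *Cma1*, -2.14 for *Tec*, -2.13 for *Acta2*, -1.81 for *Slc40a1* and -1.19 for *Txnip* on the lower side.

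The reporter transcript *tdTomato*, outside the main measurement, had 3579 UMIs over all barcodes in ablated 1 and 3140 in ablated 2, and 0 in both controls. Within macrophage-like cells it had 18 and 15 UMIs in the ablated libraries. The paper describes this transcript as leaky, with a low background in most cells, and called a cell positive only above a set count. Whether any macrophage-like cell carried the lineage label was not tested.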

How the results depend on the processing

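For the count of changed genes in macrophage-like cells (4), the likelihood ratio test gave 17, no filter on low counts 36, a minimum of 2 markers 11 and of 4 markers 6. Removal of doublet candidates gave 1. Removal of hemoglobin and mitochondrial genes, the study's cell limits or no upper UMI limit gave 0 each with edgeR (234, 162 and 318 at an unadjusted p under 0.05). With the replicate number as a block 1 gene was called; the numbers do not pair the libraries. Without control replicate 1 the count was 30, without control replicate 2 it was 81, without ablated replicate 1 it was 29 and without ablated replicate 2 it was 15, with the lone library assumed to vary like the others. With no upper UMI limit the log2 fold changes turned to 0.83 for *Hbb-bs*, 1.02 for *Hbb-bt*, 1.01 for *Hba-a1* and 0.98 for *Hba-a2*. The cause was not tested. For genes whose response differed (47), DESeq2 and thinning to 1000 UMIs gave 1 each, the study's limits 29, no upper limit 75, a minimum of 2 markers 77 and of 4 markers 82, and leaving out 1 library 23 (ablated 2) to 60 (control 2), with 29 without ablated 1. The log2 difference turned to 0.80 for *Tpsb2* and 0.16 for *Cma1* under the study's limits, to 2.12 and 1.27 with no upper limit, and to 2.08 and 0.19 for *Acta2* without doublet candidates and after thinning. Leaving out 1 library gave -12.4 to 1.23 for *Tpsb2* (the latter without control 2), -3.37 to 2.55 for *Acta2* (without control 1) and -6.77 (without ablated 1) to 15.04 for *H2-Ab1*. Of the values of single named genes under alternatives, 228 fold changes and 129 differences of response kept their direction and side of the threshold, 51 fold changes newly passed it, and 15 fold changes and 58 differences no longer did. The log2 ratio of the shares of macrophage-like cells (0.12) turned to -0.012 under the study's limits and -0.022 with 2 markers, and was 0.17 with 4 markers. The difference for *Lyve1* (-1.27 points) ranged from -2.77 to 0.23 and that for cycling cells (-1.91 points) from -4.87 to 1.05 as 1 library was left out, and the latter was 0.35 without thinning. With no upper UMI limit the cycling difference was -6.22 points and with 4 markers -3.48, with groups apart in both (exact permutation p = 0.333, the smallest possible), and the *Lyve1* difference was -3.75 points under the study's limits. The MHC class II difference (1.83 points) was 0 without ablated 1 and up to 3.66 otherwise. The identity count (198) was 76 with 100 CPM added and 439 with no minimum CPM. With 66 to 87 cells per library, a gene near 20 CPM rests on fewer than 10 UMIs.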

Other observations

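The UMIs of 2 interferon-induced genes, chosen after their values were seen, were highest in ablated 1. *Ifit2*, an antiviral RNA-binding protein, had 51 UMIs in ablated 1, of which 28 lay in 1 cell and 23 in 7 more, and 1, 8 and 3 UMIs in control 1, control 2 and ablated 2. *Rsad2*, the antiviral enzyme viperin, had 45 UMIs in ablated 1, of which 26 lay in 1 cell and 19 in 6 more, and 3, 7 and 5 UMIs in the other libraries. Other genes of the interferon list were measured in every library, such as *Bst2* at 410.03, 479.7, 449.8 and 433 CPM, and whether the 2 highest cells are the same cell was not tested.

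*Mki67*, a proliferation antigen, was detected in 33 of the 310 cells, and 8 of these 33 (24.2%) also held *Lyve1*, against 63 of the 277 cells (22.7%) without *Mki67*. The median depth was 7633 UMIs with and 5498 UMIs without *Mki67*.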
